A study of Mus musculus with 8 samples.

Results

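The 10 genes described here (Nqo1, Gclc, Gclm, Txnrd1, Srxn1, Hmox1, Cbr3, Ugdh, Gsr and Ephx1) encode antioxidant and detoxifying enzymes that are known targets of the transcription factor NRF2. They were taken by name, as all probe sets of the array whose platform gene symbol is one of the 10. The rule uses no measured value, but the 10 genes were picked with earlier results of these data known. They were covered by 17 of the 22626 probe sets other than controls, and all 17 passed the filter on dim probe sets, which 15838 probe sets of 9359 genes passed. Liver RNA was measured on 8 Affymetrix oligonucleotide arrays, each with RNA from 1 mouse, in 4 groups of 2 arrays. The first group carried a human LXRα transgene and was given T0901317, the second carried human LXRα and was given vehicle, the third carried GFP and was given T0901317, and the fourth carried GFP and was given vehicle. LXRα, the liver X receptor, is a nuclear receptor activated by oxysterols, and T0901317 is a synthetic LXR agonist. The agonist was given at 5 mg/kg, and both agonist and vehicle were injected intraperitoneally for 3 days. Mice of all 4 groups, the controls included, were null for the low density lipoprotein receptor on the C57B6 background, were 8 months old, and were on a Western diet for 12 weeks beforehand. All had received an adeno-associated virus (AAV2.8) at an age of 10 weeks, with the transgene under the human thyroxine binding globulin promoter, which is active in the liver, so the LXRα of the transgene adds to the receptor the mice already have. The question the design poses for these genes is whether the receptor, its agonist, or both together moved them.

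NRF2, encoded by Nfe2l2, is bound in the cytosol by KEAP1, which passes it to a cullin 3 ubiquitin ligase for degradation. Oxidants and electrophiles modify KEAP1, NRF2 then accumulates, and with a small MAF protein it binds antioxidant response elements near genes of glutathione synthesis, the thioredoxin system, quinone reduction and conjugation. In the liver these enzymes handle drugs, bile acids and lipid peroxides, and BACH1 is a repressor that occupies such elements, at Hmox1 in particular.

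The sequences below show where the letters of such an element occur near the start sites of the genes, since those letters are the ones that NRF2 is known to bind. The motif searched was TGACNNNGC, on both strands, in RefSeq windows of 300 bases (250 before to 50 after the start; build GRCm38.p6). It was found in 4071 of 32851 windows of all genes, or 12.4%. Of the 10 genes, 7 had a window in this table, 9 windows in all, and 4 windows of 4 genes held the motif. The capitals mark the match, each sequence runs 5′ to 3′ on the strand of its gene, and no match overlapped the letters TGANTCA of an AP-1 site. The stretch of Gclm is chr3:122245397-122245457 (plus strand), that of Txnrd1 is chr10:82859088-82859148 (plus), that of Srxn1 is chr2:152105542-152105570 (plus, downstream of the start) and that of Ugdh, with 2 matches, is chr5:65435902-65436000 (minus).
Gclm: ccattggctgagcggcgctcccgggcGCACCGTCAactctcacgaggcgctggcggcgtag
Txnrd1: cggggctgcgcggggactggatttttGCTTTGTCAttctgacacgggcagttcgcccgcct
Srxn1: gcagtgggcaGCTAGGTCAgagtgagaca
Ugdh: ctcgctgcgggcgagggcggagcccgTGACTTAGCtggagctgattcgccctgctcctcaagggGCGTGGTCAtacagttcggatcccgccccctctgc
In Gclm, Txnrd1 and Srxn1 the match lies on the strand opposite to the gene, and Ugdh holds a match on each strand. The windows of Nqo1, Cbr3 and Ephx1 and the other 2 windows of Txnrd1 held no such letters, which says nothing about elements farther away. A match is a run of letters and no measured site of binding.

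All values below are the deposited intensities, or their log2 after raising values under 7.50 to that floor. Median intensities of the arrays ranged from 21.0 to 23.2. Arrays of one group correlated with r between 0.968 and 0.986 over the 22626 probe sets other than controls. The ratio of the 3′ to the 5′ control probe sets of β-actin can be higher where RNA is shorter. It was 2.75 and 36.3 on the LXRα T0901317 arrays and 2.61 and 3.08 on the LXRα vehicle arrays. On the GFP T0901317 arrays it was 7.56 and 11.04, and on the GFP vehicle arrays 2.21 and 2.08. The second LXRα T0901317 array and both GFP T0901317 arrays thus stood apart from the other 5. The 3′ to 5′ ratio of dap, a bacterial control, was highest on the same arrays. It was 21.8 on the second LXRα T0901317 array, and 4.602 and 9.967 on the GFP T0901317 arrays. On the other 5 it lay between 1.67 and 2.86. Whether shorter RNA or the labelling raised these ratios was not tested. Of 8 hepatocyte markers 7 were measured, and their summed intensity lay between 91976 and 117268 on every array. In whole liver, fewer cells of a type and less RNA per cell cannot be told apart. Nothing in the labels beyond the separate mice says how replicates were raised or handled, so p-values measure the spread between these samples. Each gene is represented by its brightest probe set unless another is named. Differences are log2 differences with their standard error (SE) from limma, over 2 arrays against 2.

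Glutathione synthesis and recycling are represented by Gclc, Gclm and Gsr. Gclc, the catalytic subunit of glutamate-cysteine ligase, had intensities of 2841 and 1855 in LXRα livers with T0901317, 2293 and 2138 in LXRα livers with vehicle, 1945 and 1757 in GFP livers with T0901317, and 4592 and 2569 in GFP livers with vehicle. Both GFP vehicle arrays lay above both arrays of the LXRα vehicle group and of the GFP T0901317 group, while the LXRα T0901317 arrays straddled the LXRα vehicle pair. Gclm, the modifier subunit that makes the ligase more efficient, had 330.4 and 384 in LXRα livers with T0901317, 533 and 713 in LXRα livers with vehicle, 398 and 479 in GFP livers with T0901317, and 510.2 and 497 in GFP livers with vehicle. Gclm was the only one of the 10 genes that was highest in LXRα vehicle livers, with both arrays of that group above every other array. Gsr, glutathione reductase, which regenerates reduced glutathione with NADPH, had 586 and 315 in LXRα livers with T0901317, 229.6 and 288 in LXRα livers with vehicle, 358 and 343 in GFP livers with T0901317, and 377 and 260.4 in GFP livers with vehicle. Its LXRα T0901317 arrays lay above its LXRα vehicle arrays, and the arrays of the 2 GFP groups overlapped.

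The thioredoxin system is represented by Txnrd1 and Srxn1. Txnrd1, the cytosolic thioredoxin reductase, a selenoenzyme, had 806 and 423 in LXRα livers with T0901317, 435 and 605 in LXRα livers with vehicle, 514 and 478 in GFP livers with T0901317, and 799.8 and 516 in GFP livers with vehicle. Apart from the GFP T0901317 arrays, which were both below the GFP vehicle pair, the groups set against each other overlapped. Srxn1, sulfiredoxin, which repairs hyperoxidised peroxiredoxins, had 417 and 200.1 in LXRα livers with T0901317, 111 and 82.3 in LXRα livers with vehicle, 203 and 166 in GFP livers with T0901317, and 570.2 and 278 in GFP livers with vehicle. The LXRα vehicle arrays were the lowest 2 of the 8 and the first GFP vehicle array was the highest.

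Nqo1 and Cbr3 reduce quinones and carbonyls. Nqo1, NAD(P)H quinone dehydrogenase, the most widely used marker gene of NRF2 activity, was dim, with 32.4 and 21.8 in LXRα livers with T0901317, 20.05 and 10.04 in LXRα livers with vehicle, 21.9 and 22.8 in GFP livers with T0901317, and 24.3 and 25.6 in GFP livers with vehicle. Both LXRα vehicle arrays lay below all other arrays, and the other 6 lay between 21.8 and 32.4. Cbr3, carbonyl reductase 3, had 82.2 and 20.3 in LXRα livers with T0901317, 7.29 and 7.26 in LXRα livers with vehicle, 16.6 and 20.9 in GFP livers with T0901317, and 107 and 30.6 in GFP livers with vehicle. Both LXRα vehicle values are just under the floor of 7.50. The size of a Cbr3 difference from that group depends on how such low values are treated. Within the LXRα T0901317 pair and the GFP vehicle pair the Cbr3 values were far apart, and the first array was the higher in each.

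The remaining enzymes act on heme, sugars and epoxides. Hmox1, heme oxygenase 1, which breaks heme down to biliverdin, iron and carbon monoxide and is also abundant in macrophages that clear erythrocytes, had 122 and 149 in LXRα livers with T0901317, 193 and 109.9 in LXRα livers with vehicle, 75.7 and 162 in GFP livers with T0901317, and 279 and 398 in GFP livers with vehicle. Both GFP vehicle arrays lay above the other 6, which overlapped. Ugdh, which makes the UDP-glucuronic acid used in glucuronidation, had 1412 and 1011 in LXRα livers with T0901317, 912 and 1051 in LXRα livers with vehicle, 1106 and 941 in GFP livers with T0901317, and 1793 and 1324 in GFP livers with vehicle. Ephx1, the microsomal epoxide hydrolase, had 2974 and 1324 in LXRα livers with T0901317, 1540.1 and 966 in LXRα livers with vehicle, 1623 and 981 in GFP livers with T0901317, and 3872 and 1971 in GFP livers with vehicle. For Ugdh and Ephx1 both GFP vehicle arrays lay above both LXRα vehicle arrays and both GFP T0901317 arrays, and the LXRα T0901317 arrays overlapped the LXRα vehicle arrays.

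**Figure D1:**
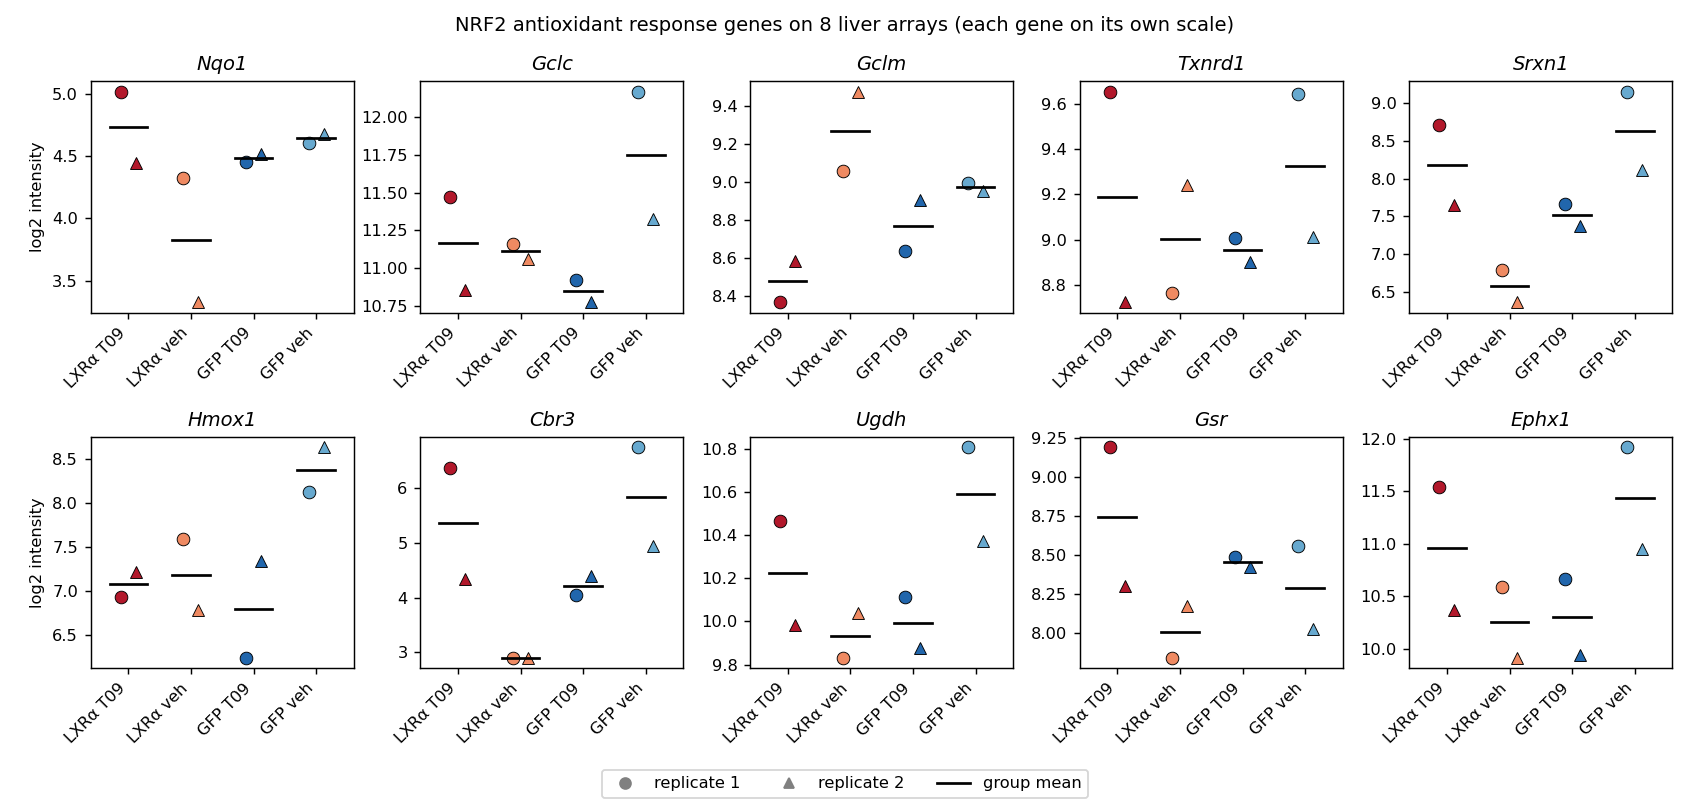
Log2 intensity (y axis, on a scale of its own for each gene) of the brightest probe set of each of the 10 genes on the 8 arrays, by group (x axis; veh, vehicle; T09, T0901317); circles are replicate 1, triangles replicate 2, and bars the group means. Gclm is the gene highest in LXRα vehicle livers, at 533 and 713, and Cbr3 lies at the floor of 7.50 there.

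Livers with LXRα and vehicle were set against livers with GFP and vehicle to ask what the receptor did without added agonist. Of the 10 genes, 9 were lower with LXRα, and 1, Gclm, was higher. Apart from Cbr3, the largest differences were those of Srxn1 (-2.06, SE 0.46), Hmox1 (-1.19, SE 0.44) and Ephx1 (-1.18, SE 0.52), so that Srxn1 was 4.17-fold and Hmox1 2.29-fold lower. Gclm was higher by 0.29 (SE 0.25). No gene passed the test: limma with Benjamini-Hochberg adjustment over 15838 probe sets called 0 of the 17 probe sets, at adjusted p-values from 0.620 to 0.965 for the 10 genes, and 0.00631% of all probe sets tested. The median over the 10 genes was -0.74, beside 0.05 over all tested probe sets, of which 40.2% were lower. Over all 17 probe sets of the genes 14 were lower, with a median of -0.65.

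The sizes below describe direction and spread, since the test left every gene uncalled. At an unadjusted p under 0.05, 5 of the 10 genes were lower with LXRα, against 5.15% of all probe sets in either direction. These were Nqo1, Srxn1, Hmox1, Cbr3 and Ugdh, and for Cbr3 both LXRα vehicle values were raised to the floor. For 7 genes both LXRα vehicle arrays lay below both GFP vehicle arrays, a pattern held by 13.5% of all probe sets, and for Gclm alone both lay above, as for 30.9%. Nqo1 was lower by 0.82 on the log2 scale (SE 0.33; log2 means 3.83 ± 0.71 in LXRα vehicle livers and 4.64 ± 0.05 in GFP vehicle livers, SD, n = 2 each). The difference was -0.63 (SE 0.34) for Gclc and -0.65 (SE 0.27) for Ugdh. Txnrd1 and Gsr, at -0.32 (SE 0.38) and -0.28 (SE 0.35), had groups that overlapped. For Cbr3, at the floor on both LXRα vehicle arrays, the size depends on how such values are treated. It was -2.93 with the floor, -2.98 with a floor of 4.59 and -1.70 with an offset of 16 in place of a floor. The median over the genes lay between -0.999 and -0.564 with each array left out in turn. Under every alternative that kept all 10 genes 9 were lower, but several alternatives leave a difference as it is. Hepatocyte markers were higher with LXRα for 6 of 7. They summed to 117268 and 110749 in LXRα vehicle livers and to 95007 and 104569 in GFP vehicle livers. Most markers of other cells were lower in the same arrays. Of 15 macrophage and Kupffer cell markers 14 were measured and all 14 were lower, their summed intensity was between 4336 and 10825 in LXRα vehicle livers and between 14821 and 16289 in GFP vehicle livers, and Cd68 and Fcgr1 were under the floor on the second LXRα vehicle array. Of 8 matrix and stellate cell markers, all measured, 7 were lower, and they summed to 870.0 and 1055 in LXRα vehicle livers and to 1720.4 and 3001 in GFP vehicle livers. Of 7 endothelial markers 6 were lower, with sums of 343 and 482 in LXRα vehicle livers and 549 and 562 in GFP vehicle livers. The part of these cells in the differences was not tested.

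GFP livers given T0901317 were set against GFP livers given vehicle to ask what the agonist did with the mouse's own receptors. Of the 10 genes, 9 were lower with the agonist and Gsr was higher. Cbr3 differed by -1.62 (SE 0.74), Hmox1 by -1.59 (SE 0.44), Ephx1 by -1.13 (SE 0.52), Srxn1 by -1.12 (SE 0.46) and Gclc by -0.89 (SE 0.34). Again limma called 0 of the 17 probe sets, at adjusted p-values from 0.242 to 0.830 for the 10 genes, and it called 0% of all probe sets. The median over the genes was -0.74, beside -0.05 over all probe sets, of which 55% were lower. Over all 17 probe sets of the genes 16 were lower, with a median of -0.89.

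Hmox1, the gene with the smallest adjusted p (0.242), was 3.01-fold lower, with log2 means of 6.79 ± 0.78 in GFP T0901317 livers and 8.38 ± 0.36 in GFP vehicle livers (SD, n = 2 each). Gclc and Srxn1 were the other 2 genes at an unadjusted p under 0.05, which makes 3 of 10, beside 13.2% of all probe sets. For 9 genes both agonist arrays lay below both vehicle arrays, beside 35.2% of all probe sets; for none did both lie above, beside 23.2%. Ugdh differed by -0.59 (SE 0.27), Txnrd1 by -0.38 (SE 0.38), Gclm by -0.20 (SE 0.25), Nqo1 by -0.16 (SE 0.33) and Gsr by 0.16 (SE 0.35). Leaving out the first GFP vehicle array moved the median to -0.43, and leaving out the second moved it to -1.06. This comparison and the one before it share the GFP vehicle arrays, so a high GFP vehicle value lowers the difference in both. The β-actin ratio also separates these groups, at 7.56 and 11.04 with the agonist and 2.21 and 2.08 with vehicle. With the log2 ratio as a covariate the median was -0.39 and 7 of 10 genes were lower, Nqo1 and Txnrd1 then being higher by 0.18 and 0.12. The slope of that covariate comes only from gaps within groups, by far the widest being that of the LXRα T0901317 pair, at 2.75 and 36.3. It therefore cannot tell the agonist from the ratio in GFP livers. Of the macrophage markers 10 of 14 were lower with the agonist, with sums of 10271 and 17629 in GFP T0901317 livers against 14821 and 16289 in GFP vehicle livers. Of the matrix and stellate cell markers 4 of 8 were lower, of the endothelial markers 1 of 7 and of the hepatocyte markers 4 of 7. The part of RNA or labelling quality and of these cells in the differences was not tested.

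Livers with LXRα and T0901317 were set against livers with LXRα and vehicle to ask what the agonist did once the receptor was added. By the brightest probe set of each gene 8 of 10 were higher with the agonist, and Gclm and Hmox1 were lower. Over all 17 probe sets of the genes, however, 8 were higher and 9 lower, with a median of -0.081, so the count depends on the probe set taken. Apart from Cbr3, at 2.44 with the floor and 1.36 with an offset of 16, the largest differences were those of Srxn1 (1.60, SE 0.46), Nqo1 (0.91, SE 0.33) and, in the other direction, Gclm (-0.79, SE 0.25), which makes Srxn1 3.03-fold higher and Gclm 1.73-fold lower. No gene passed: 0 of the 17 probe sets were called, at adjusted p-values from 0.257 to 0.949 for the 10 genes, beside 0.0253% of all probe sets. The median over the brightest probe sets was 0.49, beside -0.05 over all probe sets, of which 55.5% were lower.

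Cbr3 and those 3 genes were also the ones at an unadjusted p under 0.05, 4 of 10 beside 13.2% of all probe sets. For Cbr3 both LXRα vehicle values were raised to the floor, and with a floor of 4.59 its difference was 2.49. In 4 genes (Nqo1, Srxn1, Cbr3 and Gsr) both agonist arrays lay above both vehicle arrays, beside 20% of all probe sets, and in Gclm both lay below, beside 28.5%. Gsr differed by 0.74 (SE 0.35) and Ephx1 by 0.70 (SE 0.52). Ugdh at 0.29 (SE 0.27), Txnrd1 at 0.19 (SE 0.38), Gclc at 0.05 (SE 0.34) and Hmox1 at -0.11 (SE 0.44) had arrays of both groups mixed. The first LXRα T0901317 array decided much of this median, which was 0.08 without it and 0.92 without the second, the array with the β-actin ratio of 36.3. For Gclc and Txnrd1 the direction turned without the first array, to -0.26 and -0.28. Macrophage markers were higher for 12 of 14, with sums of 11424 and 12404 in LXRα T0901317 livers against 4336 and 10825 in LXRα vehicle livers. Matrix and stellate cell markers were higher for 7 of 8, with sums of 2796 and 3214 in LXRα T0901317 livers against 870.0 and 1055 in LXRα vehicle livers. Endothelial markers were higher for 6 of 7, with sums of 835 and 847 in LXRα T0901317 livers against 343 and 482 in LXRα vehicle livers. Hepatocyte markers were lower for 6 of 7. They summed to 109225 and 91976 in LXRα T0901317 livers and to 117268 and 110749 in LXRα vehicle livers. The part of these cells was not tested.

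**Figure D2:**
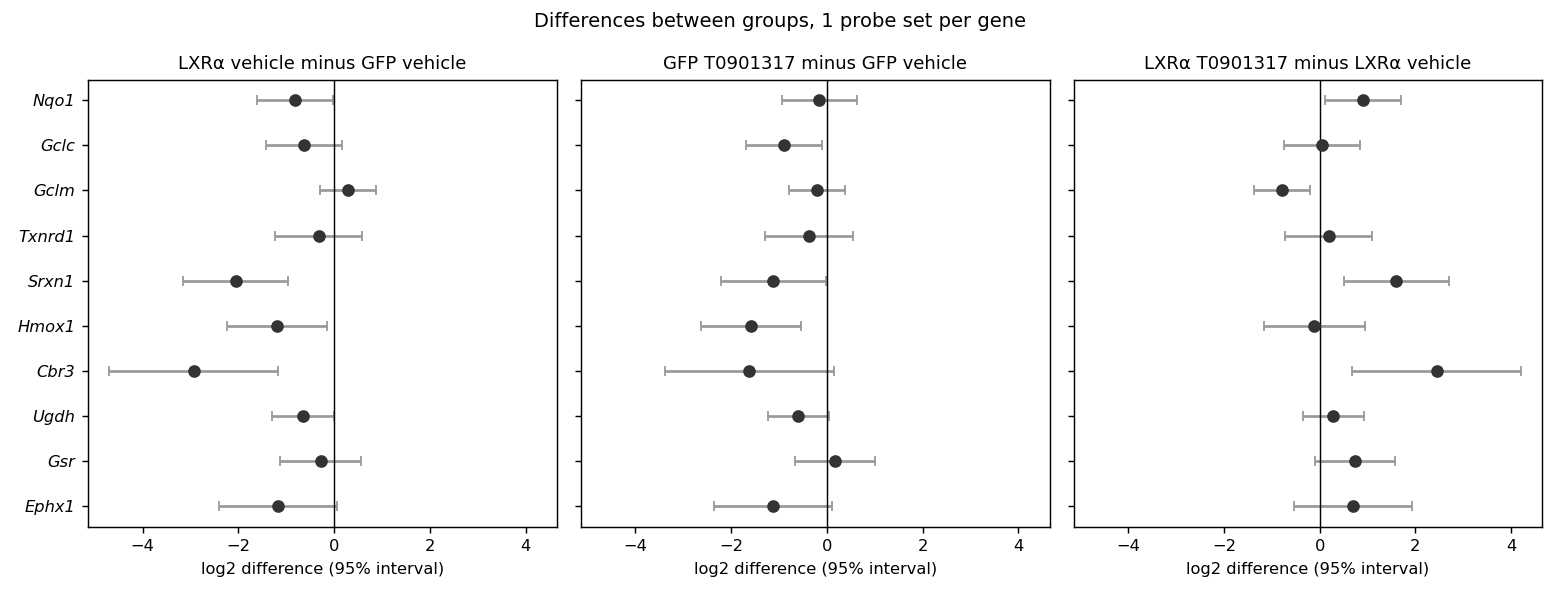
Log2 difference between groups (x axis; bars are 95% intervals from limma, not adjusted for the number of probe sets) for the brightest probe set of each of the 10 genes (y axis) in 3 comparisons of 2 arrays against 2. In the left and middle panels 9 of 10 points lie below 0, and in the right panel 8 of 10 lie above it (8 of 17 over all probe sets of the genes), while no gene passed the adjusted test. For the Cbr3 points of the left and right panels both LXRα vehicle values were raised to the floor.

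The agonist difference was then compared between the 2 transgenes directly, as an interaction in the same fit. The agonist difference was higher with LXRα than with GFP for 9 of 10 genes and lower for Gclm (-0.59, SE 0.35), with a median of 1.01, beside -0.02 over all probe sets. Over all 17 probe sets of the genes 13 were higher, with a median of 0.99. Srxn1 (2.71, SE 0.66), Ephx1 (1.83, SE 0.74) and Cbr3 were at an unadjusted p under 0.05, beside 4.77% of all probe sets. The Cbr3 value depends on how low values are treated. It was 4.06 with the floor, 4.11 with a floor of 4.59 and 2.49 with an offset of 16. None passed after adjustment, at 0.957 or above, beside 0.00631% of all probe sets called. All 4 groups enter this value, and a high GFP vehicle pair or a low LXRα vehicle pair raises it.

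LXRα livers given T0901317 were also set against GFP livers given T0901317. Of the 10 genes 9 were higher with LXRα, with a median of 0.29 beside 0.03 over all probe sets, of which 42.5% were lower. None was at an unadjusted p under 0.05, beside 2.24% of all probe sets, and the adjusted p was 1 for all 10, with 0% of all probe sets called. Without the first LXRα T0901317 array 5 of 10 were lower and the median was -0.00424. Averaged over transgenes, agonist livers were lower than vehicle livers for 6 genes, with a median of -0.12, 2 genes at an unadjusted p under 0.05 beside 23.2% of all probe sets, and none called, beside 0.568% of all. Over all 17 probe sets of the genes 13 were lower, with a median of -0.40 and 4 at an unadjusted p under 0.05. Averaged over treatments, LXRα livers were lower than GFP livers for 9 genes, with a median of -0.24, none at an unadjusted p under 0.05 beside 2.66% of all, and none called, beside 0.00631% of all.

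The 8 arrays can also be read one by one. The first GFP vehicle array was above the gene's own mean over the 8 arrays for 10 of 10 genes, by 0.81 on average on the log2 scale, and the second for 8 of 10, by 0.24. The first LXRα T0901317 array was above it for 8 of 10, by 0.51, but its partner for 1 of 10, at -0.21. The LXRα vehicle arrays, at -0.37 and -0.53, and the GFP T0901317 arrays, at -0.24 and -0.22, were below it on average. Over all tested probe sets the median deviation of an array lay between -0.05 and 0.04. The first GFP vehicle array held the highest value for 5 genes and the first LXRα T0901317 array for 3. The genes therefore differed within groups as well as between them. Between the 2 LXRα T0901317 arrays the median absolute gap over the 10 genes was 0.75, beside 0.33 over all probe sets, and between the 2 GFP vehicle arrays it was 0.58, beside 0.18. In both of these groups the first array was the higher for 8 of 10 genes. These 2 within-group gaps are close in size to the medians of the 3 comparisons. The median absolute gap was 0.42 in the LXRα vehicle pair, beside 0.19 over all probe sets. In the GFP T0901317 pair it was 0.25, beside 0.22.

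**Figure D3:**
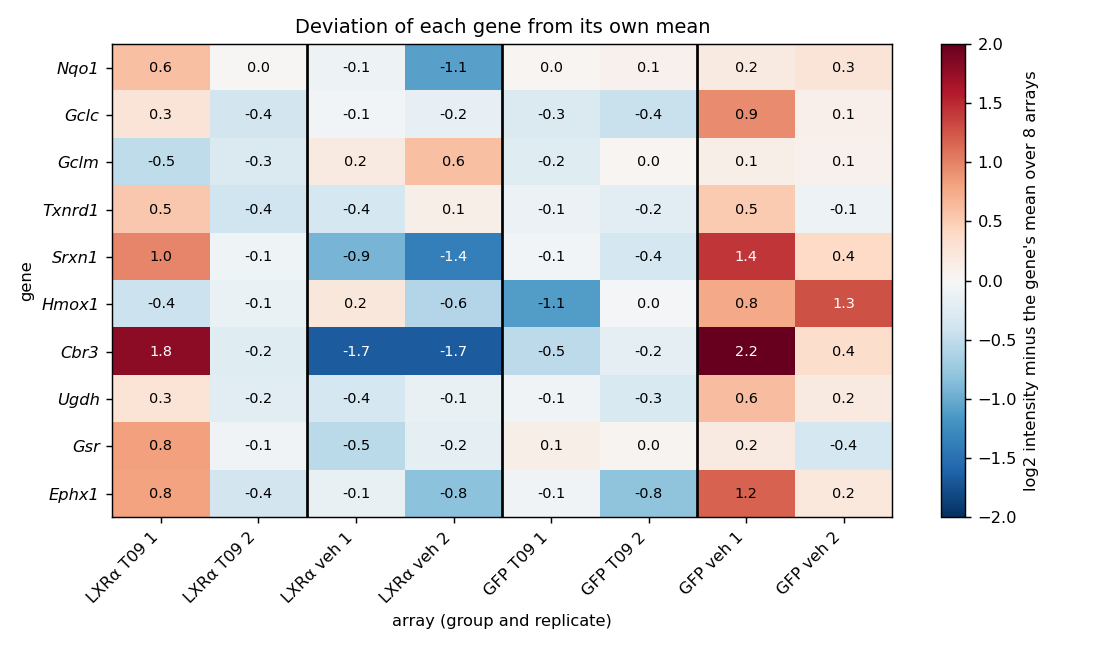
Log2 intensity of each gene (rows) on each array (columns, by group and replicate) minus the gene's mean over the 8 arrays; the colour scale ends at 2 and -2. The first GFP vehicle array is above the mean for 10 of 10 genes and the first LXRα T0901317 array for 8, while each LXRα vehicle array is above it for 2.

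Most of the genes shared one profile over the arrays, as a description over n = 8 arrays that share their group and their RNA or labelling quality. Of 45 pairs of genes 37 had a Pearson r above 0, with a median of 0.51 and a range from -0.81 to 0.98. The closest pair was Srxn1 and Cbr3 (r = 0.975), then Gclc and Ugdh (0.905), Ugdh and Ephx1 (0.895) and Srxn1 and Ephx1 (0.892). Against the mean profile of the 10, which includes each gene, r was 0.958 for Ugdh, 0.940 for Cbr3, 0.932 for Ephx1, 0.926 for Srxn1, 0.905 for Gclc and 0.816 for Txnrd1. Nqo1 (0.599), Gsr (0.565) and Hmox1 (0.469) followed it less closely, and Gclm ran weakly against it (-0.283). The 2 subunits of the ligase, Gclc and Gclm, had an r of 0.047 with each other. Outside the 10, the genes most like the mean profile were Krt18 (0.956), Ankrd40 (0.950), D17H6S56E-5 (0.946), Icam2 (0.943) and Mmp12 (0.935). Those most like Nqo1 were Thumpd1 (0.974), Grk6 (0.971), Srgn (0.969), Tuba1a (0.967) and Dnajc9 (0.966). Both lists were picked as the highest r among the tested genes, so the size of r is no evidence of a link. Pairs of other genes were not counted beside the 37 of 45.

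Probe sets of the same gene did not always give the same direction. Srxn1 had 4, and 1451680_at read 189.6 and 12.1 in LXRα livers with T0901317, 63.0 and 53.5 in LXRα livers with vehicle, 15.1 and 16.3 in GFP livers with T0901317, and 239 and 115 in GFP livers with vehicle. Its 3 lowest arrays were the 3 with the highest β-actin ratios. In GFP livers its agonist difference was -3.40 (SE 1.12), beside -1.66 for 1425351_at, -1.12 for the brightest and -0.14 for 1419942_at. In LXRα livers the agonist difference was 1.60 for the brightest and -0.28, -0.32 and -0.58 for 1451680_at, 1425351_at and 1419942_at, so the direction for Srxn1 rests on 1 probe set. Gsr showed the same kind of split. Its probe set 1421816_at read 413 and 25.2 in LXRα livers with T0901317, 176 and 233 in LXRα livers with vehicle, 149 and 93.6 in GFP livers with T0901317, and 256 and 173 in GFP livers with vehicle. The array at 25.2 is again the one with the ratio of 36.3, and the agonist difference in LXRα livers was -0.99 here beside 0.74 for the brightest. For Txnrd1, 1424486_a_at read 40.5 and 25.8 in LXRα livers with T0901317, 41.2 and 42.5 in LXRα livers with vehicle, 13.7 and 18.0 in GFP livers with T0901317, and 87.2 and 49.98 in GFP livers with vehicle. As for 1451680_at, its 3 lowest arrays were the 3 with the highest β-actin ratios. Its agonist difference in GFP livers, -2.07 (SE 0.33), had the smallest adjusted p of the 17 probe sets there, 0.138, and its value in LXRα livers was -0.37. The third Txnrd1 probe set, 1424487_x_at, stayed between 14.7 and 27.3 on all arrays. The second Gclc probe set, 1455959_s_at, followed the first, with differences of -0.50 between the vehicle groups and -1.07 for the agonist in GFP livers. The part of RNA or labelling quality in these splits was not tested.

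**Figure D4:**
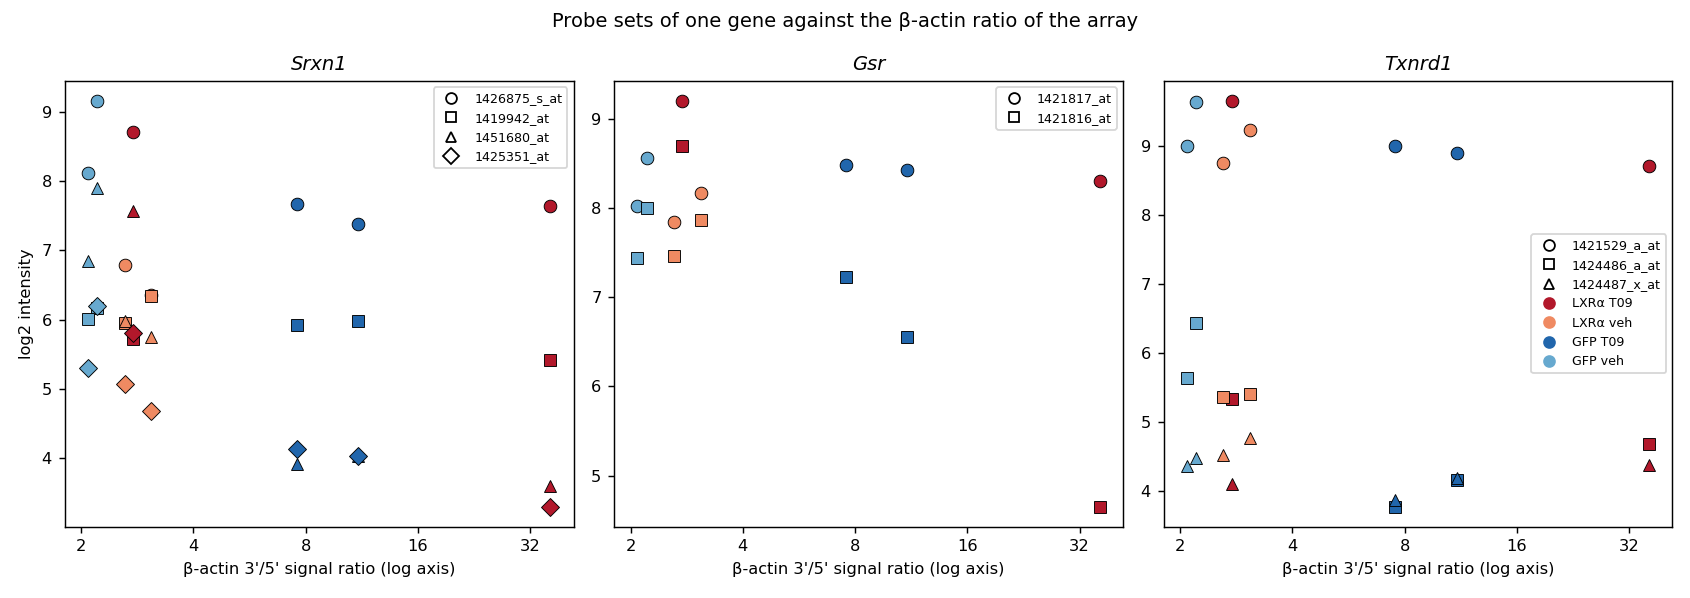
Log2 intensity (y axis) of each probe set of Srxn1, Gsr and Txnrd1 against the 3′/5′ ratio of β-actin on the same array (x axis, log scale); shapes are probe sets and colours groups (veh, vehicle; T09, T0901317). Probe sets 1451680_at of Srxn1 and 1421816_at of Gsr are lowest on the array with the ratio of 36.3, at 12.1 and 25.2.

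Other genes of the pathway were counted from 3 lists. Of 11 regulators 8 were measured, and none was called in any comparison. With LXRα and vehicle against GFP and vehicle, 4 were lower and 4 higher (median -0.05). In GFP livers 6 of 8 were higher with the agonist (median 0.22) and in LXRα livers also 6 of 8 (median 0.29). Nfe2l2, the gene of NRF2 itself, read 556 and 527 in LXRα livers with T0901317, 367 and 167 in LXRα livers with vehicle, 456 and 447 in GFP livers with T0901317, and 627 and 423 in GFP livers with vehicle. Both LXRα vehicle arrays lay below the other 6, as for Nqo1, with a difference of -1.06 (SE 0.39, adjusted p 0.900) between the vehicle groups and of 1.13 (SE 0.39, adjusted p 0.319) for the agonist in LXRα livers. Keap1, the sensor, differed by 0.47 (SE 0.26) between the vehicle groups and by 1.23 (SE 0.26, adjusted p 0.184) for the agonist in GFP livers. Bach1, the repressor, differed by 1.28 (SE 0.32, adjusted p 0.208) for the agonist in GFP livers and by 0.99 (SE 0.32, adjusted p 0.293) in LXRα livers. Sqstm1, the autophagy adaptor p62, which binds KEAP1, differed by -1.27 (SE 0.76) for the agonist in GFP livers. Between the agonist groups the largest regulator differences were 0.30 for Sqstm1 and 0.26 for Nfe2l2.

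Of 26 other targets in redox chemistry, NADPH supply and transport 20 were measured, and none was called. Between the vehicle groups 18 of 20 were lower with LXRα (median -0.59), in GFP livers 13 of 20 were lower with the agonist (median -0.23), and in LXRα livers 14 of 20 were higher with it (median 0.29). Between the vehicle groups Abcc3, an exporter of conjugates, differed by -1.40 (SE 0.46) and Cbr1, a carbonyl reductase, by -1.28 (SE 0.48). Sod1 was higher, by 1.01 (SE 0.19, adjusted p 0.580) between the vehicle groups. For the agonist in GFP livers Sod1 was also higher, by 1.17 (SE 0.19, adjusted p 0.138). In GFP livers the agonist difference was -1.36 (SE 0.61) for Gss, glutathione synthetase, and -1.28 (SE 0.28, adjusted p 0.189) for Gpx2, a glutathione peroxidase. In LXRα livers it was 1.43 (SE 0.61) for Me1, malic enzyme, which is also a gene of fatty acid synthesis, and 1.28 (SE 0.46) for Pgd of the pentose phosphate pathway; both supply NADPH. With agonist in both groups 15 of 20 were higher with LXRα, Cbr1 by 0.88 and Osgin1 by 0.73.

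Glutathione transferases, which join glutathione to electrophiles, showed the widest differences of the 3 lists. Of 10 genes 8 were measured, and none was called. Between the vehicle groups 7 of 8 were lower with LXRα (median -1.58), in GFP livers 8 of 8 were lower with the agonist (median -0.67), and in LXRα livers 6 of 8 were higher (median 2.03). Gstm3 read 5336 and 1951 in LXRα livers with T0901317, 263 and 87.2 in LXRα livers with vehicle, 1177 and 810.4 in GFP livers with T0901317, and 2672 and 984 in GFP livers with vehicle. Its LXRα vehicle arrays were the lowest 2 of the 8, with a difference of -3.42 (SE 0.74, adjusted p 0.580) between the vehicle groups and of 4.41 (SE 0.74, adjusted p 0.142) for the agonist in LXRα livers. Gsta2 differed by -2.87 (SE 1.29) and 3.57 (SE 1.29) in these comparisons, and it read 700 and 49.4 on the LXRα vehicle arrays. The mean log2 of the 8 transferases was 9.78 on the first LXRα vehicle array and 7.96 on the second. Differences from that group therefore lean partly on the second array. In GFP livers the agonist difference was -1.32 for Gsta3 and -1.18 for Gsta2, and with agonist in both groups LXRα livers were higher by 1.88 for Gsta2 and 1.72 for Gstm3. Transferases of one class are close in sequence, so a probe set may bind more than 1 of them.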

How the data were processed

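RNA of 8 mouse livers was measured on 1 Affymetrix array each, 2 per group, with groups taken from the labels. The authors deposited 1 linear intensity per probe set and array; the summarising tool is not given in the sources used here, nor is the scaling. From 22690 probe sets 64 controls were left out; 22626 remained, 20380 with 1 gene symbol, 691 with several and 1555 with none in the table of probe sets, and 20351 symbols were updated through RefSeq. Deposited intensities were raised to a floor of 7.50 (20th percentile of positive values), put on the log2 scale and filtered at the 30th percentile of mean log2. One limma fit (3.58.1, R 4.3.3) of 4 group means on all 8 arrays (4 residual and 2.93 prior degrees of freedom, intensity trend) gave all contrasts, adjusted by Benjamini-Hochberg within each over 15838 probe sets, with a threshold of 0.05. P-values in the text are from this fit. The number of arrays limits the precision. The limma fit was tested on simulated log2 values with known changes in 1 group, and the other steps were not tested in this way.

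Genes named are the 10 members with every probe set, the 2 largest differences of each pathway list in each simple comparison, and the 5 genes closest in profile to the members' mean and to Nqo1. Sod1, and Keap1 for the agonist in GFP livers, were named beside that rule, without recomputed values. The members and lists were chosen with earlier results of these data known. Alternatives tried were normalization, floor, filter, spread, replicate block, β-actin ratio, other probe sets, a threshold of 0.1 and each array left out.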

Additional observations from a re-analysis of the deposited data

How the results depend on the processing

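The count of the genes' 17 probe sets called was 0 in each of the 7 comparisons. It stayed 0 in 127 of 132 recomputed counts, including the replicate block, where it was 0 in all 7. Same-numbered arrays deviated with r from -0.138 to 0.247 between groups. With 2 arrays per group this cannot show whether the numbers mark shared handling. The count was 1 at an adjusted p under 0.1 for the averaged agonist comparison (Txnrd1 1424486_a_at, 0.0728), which 4.66% of all probe sets passed. With 1 array left out it ran from 0 to 4 probe sets, of 3 genes, for that comparison and from 0 to 1 for the agonist in GFP and in LXRα livers, the higher counts coming without an LXRα T0901317 array; without the first, 9.51% of all probe sets passed in the averaged comparison and 2.99% in LXRα livers (Gsr 1421816_at, -3.004, adjusted p 0.0329), while in GFP livers (Srxn1 1451680_at, adjusted p 0.0496 without the first and 0.0469 without the second) 0.24% and 0.271% passed. In the 4 comparisons with values for single genes, 770 values were recomputed, for the brightest probe set under each alternative and for the other probe sets in the fit as reported. Of these, 745 kept direction and side of the threshold, 25 reversed and 0 passed. Some alternatives leave a difference as it is, so its direction could not change there. These are the filter, the intensity trend, the replicate block, the compared groups fitted alone and an array left out of an uncompared group. The 745 therefore overstate how far direction was tested, as does the count for other pathway genes below. Reversals for the agonist in LXRα livers were Gclc (-0.081 by 1455959_s_at, -0.014 by the mean of probe sets), Gsr (-0.99 by 1421816_at, -0.12 by the mean), Srxn1 (-0.58, -0.32 and -0.28 by its other probe sets) and Txnrd1 (-0.37 and -0.40 by its other probe sets, -0.19 by the mean). For the agonist in GFP livers they were Gsr (-0.83 by 1421816_at, -0.33 by the mean), Nqo1 (0.18) and Txnrd1 (0.12), these 2 with the β-actin covariate, under which the averaged agonist median was 0.41. For the interaction they were Gsr (-0.15 by 1421816_at), Srxn1 (-0.44 by 1419942_at) and Txnrd1 (-0.00713 by 1424487_x_at), and between the vehicle groups Srxn1 (0.057 by 1419942_at) and Txnrd1 (0.22 by 1424487_x_at). With 1 array left out the agonist difference in LXRα livers ranged from -0.26 to 0.36 for Gclc, -0.52 to 0.30 for Hmox1 and -0.28 to 0.65 for Txnrd1, that of Gsr in GFP livers from -0.10 to 0.43, the averaged agonist median from -0.30 to 0.11 and the median of LXRα over GFP with agonist from -0.00424 to 0.66. Of 444 values of other pathway genes 440 were unchanged in direction and side; Sqstm1 turned to 0.20 with the covariate (agonist, GFP livers) and ranged from -1.03 to 1.63 between the agonist groups, Gsta2 ranged from -2.53 to 0.17 (agonist, GFP livers), and Gstm3 (agonist, LXRα livers) reached an adjusted p of 0.0448 with the replicate block. A group left with 1 array was taken to have the spread of the other groups. Leaving out the 3 arrays of high β-actin ratio was not possible where it emptied the GFP T0901317 group. The slope of the β-actin covariate rests mostly on the gap within the LXRα T0901317 pair, so values with it are no correction for the ratio in other groups. The cause of these changes was not tested beyond the arrays and probe sets named.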
